A study of Homo sapiens with 12 samples.

Results

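A set of 10 genes was followed here because their estimated counts in H1792 cells went from almost none to many, or from many to almost none, between DMSO and RG7112. The 5 genes listed as on with RG7112 were ENC1, NT5C2, STAG1, MCCC2 and RPS6KA2. The 5 genes listed as off were TPRG1L, PITHD1, DAGLA, LIN7C and ALKBH5. All 10 were found by Ensembl identifier among the 20595 genes of the table. The H1792 values chose them, so these values are described without a test. A549, whose samples took no part in the choice, was tested. H1792 and A549 are human lung adenocarcinoma cell lines with MDM2 amplification, and p53 is WT in A549 but mutant in H1792 according to most of the study's text. RG7112 is a nutlin, a small molecule that keeps MDM2, the ubiquitin ligase of p53, from holding p53. Each line was treated for 48 h with DMSO alone or with RG7112, with 3 replicates per treatment, hence 4 groups and 12 samples of RNA-seq. The labels and the methods give 1 µM RG7112, whereas the column names of the table carry 0.1 µM. Each line is a single cell line, so a difference between the lines cannot be told apart from other differences between them than p53.

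The proteins encoded by these genes have varied functions. ENC1 is a BTB-kelch protein that can recruit substrates to the CUL3 ubiquitin ligase and was also described as a p53-induced gene. NT5C2 is a cytosolic nucleotidase that removes phosphate from purine nucleotides such as IMP, and STAG1 is a subunit of cohesin, the ring that holds sister chromatids together. MCCC2 is a subunit of the mitochondrial carboxylase for methylcrotonyl-CoA in leucine breakdown, and RPS6KA2 encodes RSK3, a kinase activated by ERK. Of the off genes, ALKBH5 removes methyl groups from N6-methyladenosine in RNA, and DAGLA makes the endocannabinoid 2-arachidonoylglycerol. LIN7C is a PDZ scaffold of cell junctions and synapses, TPRG1L is a protein of synaptic vesicles also called Mover, and PITHD1 carries a PITH domain like that of the thioredoxin relative TXNL1.

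The genes lie on 7 chromosomes (GRCh38, GENCODE annotation), and no pair of them is adjacent. ENC1 (chr5:74627406-74641424, minus strand) and MCCC2 (chr5:71587288-71658704, plus strand) share chromosome 5, TPRG1L (chr1:3625002-3630127, plus strand) and PITHD1 (chr1:23778405-23788232, plus strand) share chromosome 1, and DAGLA (chr11:61680433-61747001, plus strand) and LIN7C (chr11:27494576-27506773, minus strand) share chromosome 11. NT5C2 spans chr10:103088017-103193306 (minus strand), STAG1 chr3:136336233-136752403 (minus strand), RPS6KA2 chr6:166409364-166906451 (minus strand) and ALKBH5 chr17:18183078-18209954 (plus strand). RefSeq promoter windows, from 250 bases before to 50 after a start, were matched by symbol for 8 of the 10 genes, all except ENC1 and DAGLA. For 2 on genes and 2 off genes the bases before the annotated gene start are shown 5′ to 3′, with the dinucleotide CG in capitals, since both sets hold CG-dense promoters (RefSeq, GRCh38.p14).
STAG1 (chr3:136752404-136752628, minus strand): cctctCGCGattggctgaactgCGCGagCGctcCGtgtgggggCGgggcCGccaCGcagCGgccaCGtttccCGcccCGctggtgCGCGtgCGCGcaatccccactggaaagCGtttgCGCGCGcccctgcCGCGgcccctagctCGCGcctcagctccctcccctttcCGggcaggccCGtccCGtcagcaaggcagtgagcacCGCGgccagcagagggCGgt
MCCC2 (chr5:71587090-71587287, plus strand): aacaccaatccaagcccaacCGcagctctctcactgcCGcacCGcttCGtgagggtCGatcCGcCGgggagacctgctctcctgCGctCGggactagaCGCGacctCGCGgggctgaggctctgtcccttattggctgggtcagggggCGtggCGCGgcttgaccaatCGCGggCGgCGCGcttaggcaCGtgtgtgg
TPRG1L (chr1:3624765-3625001, plus strand): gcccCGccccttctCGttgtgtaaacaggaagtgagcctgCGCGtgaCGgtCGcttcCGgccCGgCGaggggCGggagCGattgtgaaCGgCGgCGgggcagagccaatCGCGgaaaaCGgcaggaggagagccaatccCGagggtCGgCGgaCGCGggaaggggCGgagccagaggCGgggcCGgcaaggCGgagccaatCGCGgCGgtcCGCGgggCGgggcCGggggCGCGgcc
PITHD1 (chr1:23778168-23778404, plus strand): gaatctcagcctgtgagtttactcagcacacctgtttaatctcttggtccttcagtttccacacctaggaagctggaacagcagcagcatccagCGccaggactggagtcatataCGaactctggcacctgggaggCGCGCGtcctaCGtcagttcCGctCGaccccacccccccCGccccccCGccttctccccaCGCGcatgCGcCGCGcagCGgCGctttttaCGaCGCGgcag
In the full windows, CG occurred 37 times for STAG1, 25 times for MCCC2, 47 times for TPRG1L and 31 times for PITHD1. Of 35116 windows, 96% held at least 1 CG and the median was 14. Fewer CG than in the gene's own window were found in 88.7% of windows for STAG1, 68% for MCCC2, 97.6% for TPRG1L and 79.3% for PITHD1. The counts of on and off genes interleave, so CG content did not separate these 4 genes by direction.

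Samples differed in depth, with 2011916 to 6218825 counts per sample in A549 and 2610822 to 5180412 in H1792. The values are the authors' estimated counts, and CPM here are counts scaled to library size after TMM normalization within each line. A count of 3, used below as the detection floor, stood on average for 0.748 CPM (A549 DMSO), 0.924 CPM (A549 RG7112), 0.981 CPM (H1792 DMSO) and 0.674 CPM (H1792 RG7112). Floors and counting intervals cover counting error only. A listed 0 need not mean an absent transcript, since SMC3, a core subunit of cohesin, was at 0 in all 12 samples. KRT8 and KRT18, keratins of simple epithelia, were at 290.2 CPM or more on average in every group, and KRT19 at 34.9 CPM or more, while EPCAM reached at most 5.07 CPM. CDH1, also epithelial, averaged 0.413 CPM with DMSO and 0.423 CPM with RG7112 in H1792, against 12.7 and 17.6 CPM in A549. With DMSO, the mesenchymal markers VIM and CDH2 averaged 10802.5 and 226.8 CPM in H1792, against 3281.5 and 35.6 CPM in A549. The lung lineage markers NKX2-1, SFTPC and SFTPB averaged at most 0.249 CPM in any group and NAPSA at most 4.29 CPM, so the labelled origin is not visible in them. The leukocyte markers PTPRC, CD3E and LYZ and the endothelial markers PECAM1 and VWF averaged at most 0.284 CPM and CDH5, also endothelial, at most 1.16 CPM, but CD68 reached 67.5 CPM in A549 with RG7112. Of the fibroblast markers, COL1A1 reached 267 CPM in H1792 with DMSO, whereas DCN and LUM averaged at most 0.539 CPM. The p53 targets MDM2 and CDKN1A rose with RG7112 in A549, MDM2 from 8.73 ± 5.10 to 70.7 ± 9.38 CPM (SD, n = 3; edgeR quasi-likelihood test, Benjamini-Hochberg adjusted p = 0.0102) and CDKN1A from 38.0 ± 11.6 to 455 ± 439.5 CPM (edgeR adjusted p = 0.0252). Leaving out A549 DMSO replicate 2 ended the MDM2 call (edgeR adjusted p = 0.0534), and leaving out any DMSO replicate ended that of CDKN1A (up to 0.0960). MDM2 in H1792 stood at 10.7 ± 4.37 CPM before and 10.3 ± 1.54 CPM after RG7112. On the second principal component of the A549 samples (25.7% of the variance), replicate 3 of both treatments (-47.3 and -39.1) stood apart from replicates 1 and 2 (9.08 to 38.8). Nothing in the labels says that replicates were separate cultures, so p-values measure the spread between these samples, which may be technical.

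In H1792, the on genes were at or near 0 counts with DMSO and clearly counted in every RG7112 sample. ENC1 had 1, 0 and 0 counts with DMSO and 270, 424 and 302 counts with RG7112. The RG7112 samples lay close together at 69.8, 75.9 and 71.3 CPM, a spread that was small beside the change. Pooled over replicates, the ratio of RG7112 to DMSO was 724 (95% exact counting interval 130 to 28640). This ratio rested on a single DMSO count. NT5C2 was the one on gene counted in every DMSO sample, with 4, 7 and 2 counts against 201, 247 and 173 with RG7112. Its level went from 1.24 ± 0.34 to 45.7 ± 5.70 CPM (SD, n = 3), a pooled ratio of 34.7 (95% interval 20.2 to 65.6). The word off is thus not exact for NT5C2 with DMSO. In these bulk samples, fewer cells that express a gene and less RNA per cell cannot be told apart.

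STAG1, MCCC2 and RPS6KA2 had 0 counts in all 3 DMSO samples of H1792. STAG1 had 63, 137 and 66 counts with RG7112, or 16.3, 24.5 and 15.6 CPM. Their mean was at least 19.2-fold higher than the DMSO floor of 3 counts per library. MCCC2 had 49, 99 and 105 counts, or 12.7, 17.7 and 24.8 CPM, with a mean at least 18.8-fold higher. These 2 genes were above 10 CPM in each RG7112 sample. RPS6KA2 was less even, with 19, 151 and 44 counts, or 4.91, 27.03 and 10.4 CPM. Its highest RG7112 sample was 5.50 times its lowest, and the group mean of 14.1 ± 11.5 CPM was at least 14.4-fold above the floor. The DMSO and RG7112 samples did not overlap for any of the 5 genes, which the choice of the genes fixes. Over all 9914 genes tested in H1792, 27.4% were without overlap and higher with RG7112.

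The off genes showed the mirror image in H1792, with 0 counts in all 3 RG7112 samples for 4 of 5. TPRG1L had 47, 133 and 69 counts with DMSO, or 16.1, 28.4 and 29.3 CPM, with a mean at least 36.5-fold above the RG7112 floor. PITHD1 had 29, 139 and 78 counts with DMSO, or 9.92, 29.7 and 33.1 CPM, with a mean at least 36.0-fold above that floor. In both genes DMSO replicate 1 was the lowest sample. DAGLA had 36, 57 and 43 counts with DMSO, or 12.3, 12.2 and 18.3 CPM, with a mean at least 21.2-fold above the floor. Its DMSO samples lay close together. LIN7C had 42, 75 and 7 counts, or 14.4, 16.03 and 2.97 CPM, with a mean at least 16.5-fold above the floor. DMSO replicate 3 stood far below the other LIN7C samples, and the highest DMSO sample was 5.39 times the lowest. ALKBH5 had 165, 391 and 167 counts with DMSO and 0, 10 and 0 with RG7112. Its level went from 70.3 ± 13.6 to 0.597 ± 1.03 CPM (SD, n = 3), a ratio of DMSO to RG7112 of 99.4 (95% interval 53.7 to 208). All 10 counts of ALKBH5 under RG7112 came from replicate 2. Of all genes tested, 25.5% were without overlap and lower with RG7112.

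Levels can be compared between genes only per transcript length. With RG7112 in H1792, NT5C2 stood at 13.3 ± 1.66 and ENC1 at 12.8 ± 0.56 CPM per kb of the longest transcript, and these neighbours did not differ beyond their spread. MCCC2 (5.02 ± 1.66), STAG1 (3.10 ± 0.82) and RPS6KA2 (2.35 ± 1.92) followed, each overlapping the next. With DMSO, ALKBH5 led the off genes at 25.6 ± 4.93 CPM per kb, then came PITHD1 at 15.1 ± 7.81 and TPRG1L at 10.2 ± 3.06. The values of PITHD1 overlapped those of both ALKBH5 and TPRG1L within their SDs. DAGLA at 2.48 ± 0.60 and LIN7C at 2.37 ± 1.52 CPM per kb were the lowest and were not apart from each other.

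**Figure D1:**
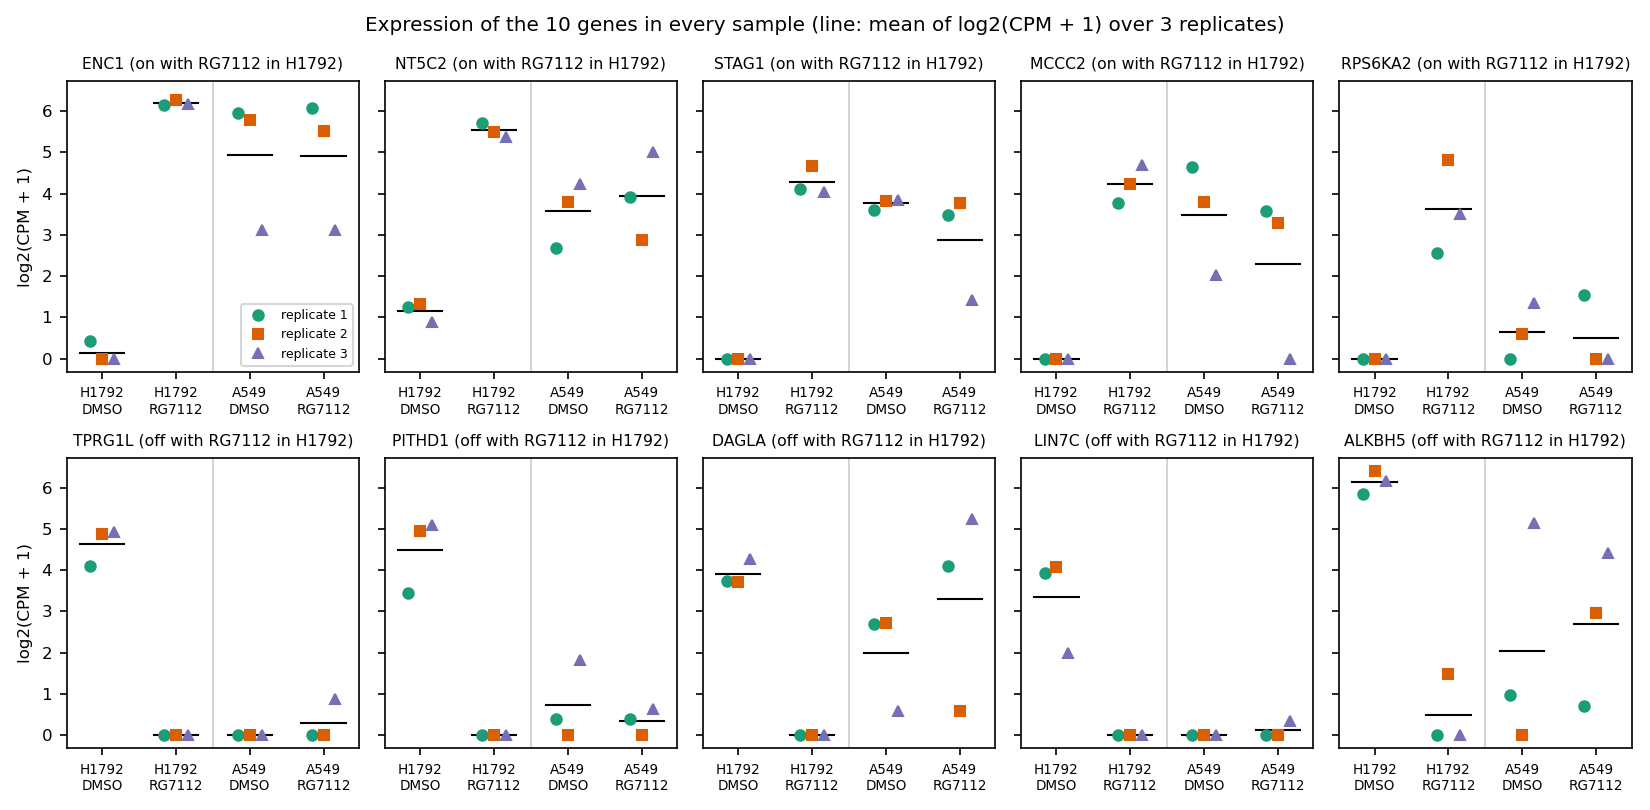
log2(CPM + 1) of each of the 10 genes (upper row on, lower row off with RG7112 in H1792) in the 4 groups, with 1 point per sample, symbols by replicate number and a line at the mean of 3 replicates. ENC1 sits at 69.8 to 75.9 CPM in the RG7112 samples of H1792 and at 0 to 0.342 CPM in its DMSO samples, and in A549 its 2 low points belong to replicate 3 of both treatments.

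The A549 samples asked whether the same genes switch where p53 is WT and its targets respond. None of the 6 genes with enough counts to be tested was a DEG between RG7112 and DMSO in A549 (edgeR quasi-likelihood test, Benjamini-Hochberg adjusted p under 0.05 and absolute log2 fold change over 1). Among all 10739 genes tested, 6.19% were DEGs. None of the 6 was without overlap between treatments, as 32.4% of all genes were. At an unadjusted p under 0.05 the count of these genes was also 0, and DESeq2 called 0. Over all 10739 genes these counts were 2567 and 893, so a count of 0 among 6 genes says little. ENC1, with a single count over the DMSO samples of H1792, was well counted with DMSO in A549, at 61.6, 53.8 and 7.63 CPM, and it was at 66.5, 44.9 and 7.77 CPM with RG7112. The treatments overlapped fully, with a log2 fold change of -0.04 (standard error 0.88, edgeR adjusted p = 0.984). That standard error leaves room for a change in either direction. NT5C2 was at 5.42, 12.9 and 17.8 CPM with DMSO and at 14.2, 6.35 and 31.3 CPM with RG7112 (log2 fold change 0.53, edgeR adjusted p = 0.667). STAG1 was at 11.2, 13.3 and 13.5 CPM with DMSO and at 10.1, 12.7 and 1.66 CPM with RG7112 (log2 fold change -0.65, edgeR adjusted p = 0.589). The low STAG1 sample was RG7112 replicate 3.

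MCCC2 in A549 was at 24.3, 12.9 and 3.05 CPM with DMSO and at 10.9, 8.79 and 0 CPM with RG7112, with a log2 fold change of -1.01 (edgeR adjusted p = 0.650). In both treatments replicate 3 was the lowest. DAGLA was at 5.42, 5.59 and 0.509 CPM with DMSO and at 16.3, 0.488 and 37.2 CPM with RG7112. Its log2 fold change of 2.24 (standard error 1.17, edgeR adjusted p = 0.305) did not pass, and the treatments overlapped. ALKBH5 was at 0.957, 0 and 34.3 CPM with DMSO and at 0.633, 6.83 and 20.2 CPM with RG7112, with a log2 fold change of -0.36 (edgeR adjusted p = 0.926). Its high samples were replicate 3 of either treatment. For the other 4 genes the counts of A549 were too low for a test. RPS6KA2 had 0, 3 and 6 counts with DMSO and 12, 0 and 0 with RG7112. PITHD1 had 1, 0 and 10 counts with DMSO and 2, 0 and 2 with RG7112. TPRG1L and LIN7C had 0 counts in all A549 samples except RG7112 replicate 3, with 3 counts and 1 count. A549 thus held ENC1, NT5C2, STAG1 and MCCC2 with DMSO, which H1792 did only with RG7112 or at a few counts, and it was at or near the floor for TPRG1L and LIN7C in both treatments.

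Replicate 3 of A549 was then compared with replicates 1 and 2, with treatment in the model. This split was noticed on the principal component of these same samples. Its p-values are therefore not those of a split set in advance, and they describe it only. Of the 6 tested genes, 1 was a DEG, against 1.48% of all 10739 genes. ENC1 was lower in replicate 3, at 7.70 CPM on average against 56.7 ± 9.44 CPM in the 4 samples of replicates 1 and 2. Its log2 difference was -2.88 (standard error 0.25, edgeR adjusted p = 0.0227), and replicate 3 was below both other replicates in either treatment. This fit took the samples of both treatments as independent. With the replicate number as a block in the model, the edgeR adjusted p of ENC1 was 0.0839. The call was lost on leaving out A549 DMSO replicate 1 or 2, or RG7112 replicate 1, 2 or 3 (edgeR adjusted p = 0.0595 to 0.112), while the difference stayed between -2.99 and -2.74. MCCC2 was at 1.53 CPM in replicate 3 and 14.2 ± 6.90 CPM in the others, with a log2 difference of -3.43 (standard error 0.82, edgeR adjusted p = 0.0832). ALKBH5 went the other way, at 27.3 CPM in replicate 3 and 2.11 ± 3.18 CPM in the others, with a log2 difference of 4.38 (standard error 1.20, edgeR adjusted p = 0.107). Neither passed the threshold, although the samples did not overlap.

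NT5C2 was higher in value in replicate 3 (24.6 against 9.74 ± 4.50 CPM, log2 difference 1.25, edgeR adjusted p = 0.183), again without overlap. The on genes ENC1 and MCCC2 lay on the opposite side. STAG1 (log2 difference -0.90, edgeR adjusted p = 0.457) and DAGLA (0.55, edgeR adjusted p = 0.848) overlapped. PITHD1, too low to be tested, had 12 counts in the samples of replicate 3 and 3 counts in the others, a ratio of 9.14 (95% exact counting interval 2.47 to 50.5). Of these 12 counts, 10 came from DMSO replicate 3 alone, and with RG7112 replicates 1 and 3 had 2 counts each. Of the 6 tested genes, 4 were without overlap between replicate 3 and the others, 2 lower and 2 higher, where 24.1% of all genes tested were. At an unadjusted p under 0.05 these 4 genes also passed, among 2422 of all 10739 genes tested. DESeq2 called ENC1, MCCC2 and ALKBH5, among 444 of all genes. The same comparison of replicate 1 with the other replicates, or of replicate 2, gave 0 DEGs with edgeR over all genes, with 252 and 228 genes at an unadjusted p under 0.05 and 10 and 7 DEGs with DESeq2. None of the 6 genes was among these calls, and 8.46% and 6.82% of all genes were without overlap. ENC1 was without overlap and higher in replicate 1 (64.0 against 28.5 ± 24.3 CPM, edgeR adjusted p = 0.954). In both of these comparisons the larger group held replicate 3, which added to the spread. The standard error of ENC1 was 0.85 and 0.97 there, against 0.25 for replicate 3. The 0 DEGs of these comparisons therefore cannot decide whether replicate 3 is special.

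**Figure D2:**
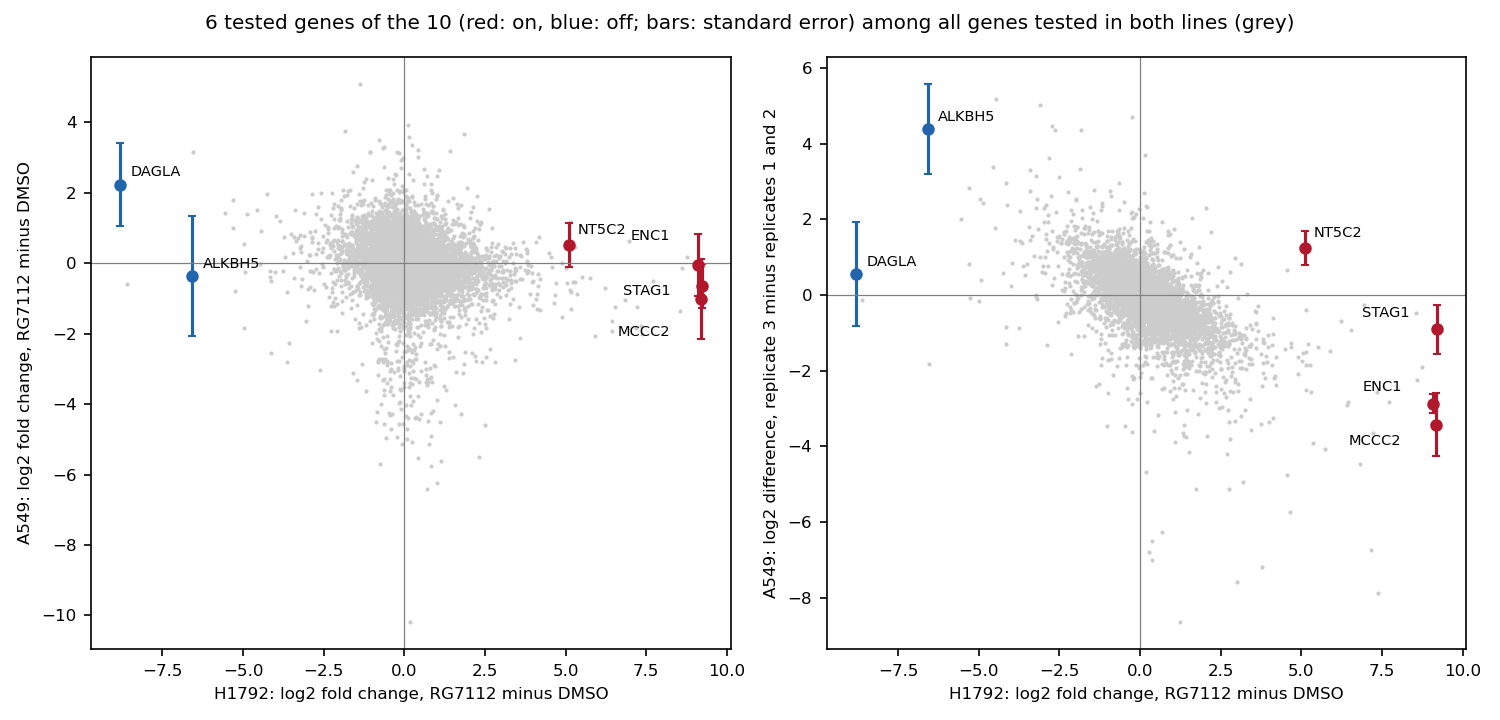
log2 fold change with RG7112 in H1792 (horizontal axes) against the A549 response to RG7112 (left) and the A549 difference of replicate 3 minus replicates 1 and 2 (right), with the genes tested in both lines in grey and the 6 tested genes of the 10 in red (on) or blue (off), bars being standard errors. On the right ENC1 (-2.88) and MCCC2 (-3.43) lie low and ALKBH5 (4.38) lies high, whereas NT5C2 (1.25) lies above 0, and horizontal positions of genes with a group at 0 counts depend on the fit and are no measure of size.

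The replicate 3 difference shares no sample with the H1792 comparison, so the calls of both were set side by side over the 9181 genes tested in both. Of 80 genes lower in replicate 3, 55 (68.8%) were also higher with RG7112 in H1792, which is 5.88% of those 936 genes, and 0 were lower with RG7112. Of 67 genes higher in replicate 3, 47 (70.1%) were lower with RG7112 in H1792, which is 11.5% of those 410 genes, and 0 were higher. ENC1 was one of the 55. In the edgeR calls that make up these sets, 10.3% of H1792 genes were higher and 4.34% lower with RG7112, and 0.819% of A549 genes were lower and 0.661% higher in replicate 3. Scaling by library size alone moved the share of higher calls in H1792 from 70.3% to 86.1%, and that in replicate 3 from 44.7% to 22.6%.

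A fixed rule for the same pattern, 3 counts or fewer in every sample of one treatment and at least 10 CPM in every sample of the other, found 9 on genes and 3 off genes in H1792. It took ENC1, STAG1 and MCCC2 of the on genes and TPRG1L and DAGLA of the off genes. NT5C2 fell outside with up to 7 DMSO counts, RPS6KA2 with 4.91 CPM in one RG7112 sample, PITHD1 with 9.92 CPM and LIN7C with 2.97 CPM in one DMSO sample, and ALKBH5 with 10 counts in one RG7112 sample. The same rule between treatments of A549 found 2 on genes and 2 off genes, and between replicate 3 and the others 0 and 1. Of the other on genes of H1792, the zinc transporter SLC39A14 averaged 37.7 CPM with RG7112 and AHCYL1, an inhibitor of the IP3 receptor, averaged 33.9 CPM. Of the 9 on genes, 7 could be tested in A549, and all 7 had a negative difference of replicate 3 from the others, with a median log2 difference of -2.82 (0.01 over all genes). In 6 of them (85.7%) replicate 3 was the lowest sample in both treatments, compared with 21.3% of all genes. DEGs lower in replicate 3 numbered 3 of 7 (42.9%), ENC1, SLC39A14 (log2 difference -2.82, edgeR adjusted p = 0.0384) and AHCYL1 (-3.64, edgeR adjusted p = 0.0227). Leaving out any one A549 sample ended the AHCYL1 call (edgeR adjusted p up to 0.112), and leaving out any but DMSO replicate 3 ended that of SLC39A14 (up to 0.130). These genes were chosen on H1792 values and include 3 of the 10, so the counts are a description. The third off gene, the RNA helicase DHX29, had a log2 difference of -1.82 (edgeR adjusted p = 0.210) in replicate 3, not on the side of ALKBH5.

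The genes whose profiles over the 12 samples were most like the mean of the on genes were CHSY1, a chondroitin synthase (r = 0.980), TMED7, a cargo receptor of the early secretory pathway (r = 0.970), and DESI2 (r = 0.969), out of 11788 genes ranked by Pearson correlation of log2(CPM + 1). CHSY1 went from 1.91 ± 0.96 to 24.0 ± 5.42 CPM in H1792 and was at 12.7 ± 2.47 CPM with DMSO in A549, an intermediate level like that of STAG1. The off genes were most like PFKL, a glycolytic phosphofructokinase (r = 0.952), and the integrin adaptor TLN1 (r = 0.951). Between the 10 genes themselves, r ranged from 0.565 to 0.938 among on genes and from 0.479 to 0.959 among off genes. The 12 points share the 4 groups by which the genes were chosen, so these coefficients describe the profiles and carry no test.

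The GC content of the longest transcript was moderate in most of these genes. Among on genes it was 40.2% for STAG1, 43.2% for NT5C2, 45.9% for MCCC2, 49.4% for ENC1 and 54.2% for RPS6KA2. Among off genes it was 33.5% for LIN7C, 50.7% for PITHD1, 54.3% for TPRG1L, 54.9% for ALKBH5 and 62.8% for DAGLA. Over all genes, the H1792 response moved with GC content. Of 10 equal bins by GC content, the lowest was rich in higher calls and the highest in lower calls. In the lowest bin 24.8% of genes were DEGs higher with RG7112 and 0.654% DEGs lower, and in the highest bin 1.09% were higher and 12.4% lower. The median log2 fold change went from 0.66 to -0.52 between these bins, and the median difference of A549 replicate 3 went from -0.31 to 0.34. STAG1, NT5C2 and MCCC2 fell in bins where higher calls prevailed and DAGLA in the bin richest in lower calls. The off genes LIN7C, in the lowest bin, and PITHD1, in a bin with 7.42% higher and 4.04% lower calls, did not follow, nor did the on gene RPS6KA2, in a bin with 4.59% higher and 5.24% lower calls. The on gene ENC1 shared the bin of PITHD1, and the off genes ALKBH5 and TPRG1L that of RPS6KA2, each on the side with more calls. ENC1, NT5C2 and ALKBH5 had counts in both treatments of H1792. With GC content fitted within each sample, their log2 fold changes went from 9.09 to 8.95, from 5.11 to 4.63 and from -6.58 to -6.45. The replicate 3 difference of ENC1 in A549 went from -2.88 to -2.79. The part of GC content in the values of the 10 genes was not otherwise tested.

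**Figure D3:**
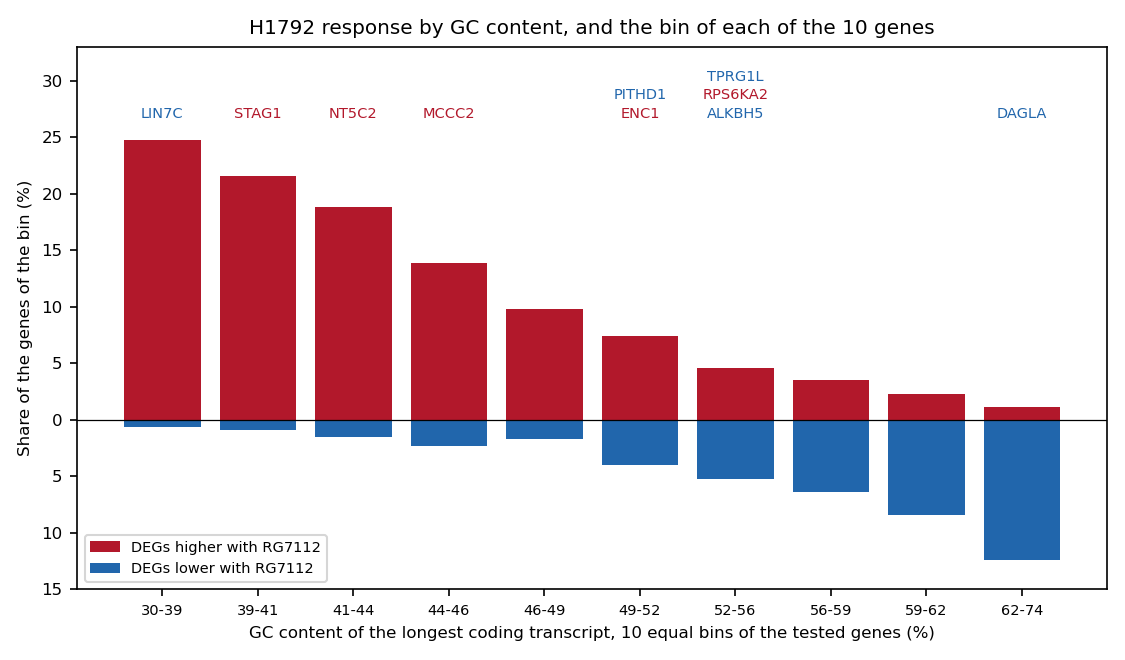
Share of genes that were DEGs higher (red, upward) or lower (blue, downward) with RG7112 in H1792, in percent, for 10 equal bins of the tested genes ordered by GC content of the longest coding transcript, with the 10 genes written over their bin (red on, blue off). Higher calls fall from 24.8% to 1.09% across the bins and lower calls go from 0.654% to 12.4%, and LIN7C, an off gene, stands in the lowest bin.

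Some of these genes share transcript sequence with others, and the counting is not stated to use strand. Of the 31-mers of the annotated transcripts of NT5C2, 35.5% also occur in other genes on either strand, first of all CNNM2, which overlaps it on the opposite strand. For STAG1 the share was 20.5%, first of all with PCCB, and for ENC1 it was 3.76%. CNNM2 was at 15.2 ± 1.08 CPM with DMSO and 16.1 ± 2.08 CPM with RG7112 in H1792, and PCCB was at 36.0 ± 5.01 and 27.03 ± 10.0 CPM. Neither was called, with edgeR adjusted p values of 0.780 and 0.307. Among off genes the share was 10.4% for ALKBH5 and 8.32% for DAGLA, in each case first of all with a transcript on the opposite strand, and at most 3.33% for the rest. Unless the counting used strand, reads from the stretches shared by a gene and its opposite partner cannot be told apart.

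Few nearby genes were called in H1792. Of the 20 nearest tested neighbours, 1 on either side of each gene, 0 were DEGs higher and 1 was a DEG lower with RG7112, whereas 14.6% of all genes tested were DEGs. That neighbour was MAP1B, a microtubule-binding protein, which lies 448530 bases from the on gene MCCC2. MAP1B fell from 26.3 ± 4.59 to 1.19 ± 1.16 CPM (log2 fold change -4.45, standard error 0.72, edgeR adjusted p = 0.00651), opposite to MCCC2. WRAP73, which lies 640 bases from the off gene TPRG1L, was at 66.0 ± 13.7 and 61.9 ± 4.76 CPM (edgeR adjusted p = 0.734). LYPLA2, which lies 2738 bases from PITHD1, was at 31.7 ± 19.4 and 31.8 ± 4.05 CPM (edgeR adjusted p = 0.990). DRG2, beside the off gene ALKBH5, was at 27.4 ± 21.5 and 8.58 ± 4.82 CPM (log2 fold change -1.64, edgeR adjusted p = 0.0962) and was not called. FLII, on the other side of ALKBH5, was lower by a log2 fold change of -0.53 (edgeR adjusted p = 0.0384), under the fold change threshold.

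Known relatives and partners of the 10 genes were then described from lists of 119 genes, 112 of them in the table. In H1792, 89 were tested and 12 were DEGs, 8 higher and 4 lower with RG7112, or 13.5% against 14.6% of all genes. In A549, 93 were tested and 4 were DEGs, 1 higher and 3 lower, or 4.30% against 6.19%. Both shares were near the background. Scaled by library size alone, 19 were DEGs in H1792, and with the replicate number and GC content both taken into account 4 were.

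The list around RPS6KA2 held the most calls, with 4 of 10 tested genes higher and 0 lower in H1792 (median log2 fold change 0.91) and no DEG in A549. It holds the RSK and MSK kinases and the ERK pathway that activates them. RPS6KA4, which encodes MSK2, rose from 18.4 ± 1.52 to 62.0 ± 21.1 CPM (edgeR adjusted p = 0.00651) and MAP2K1, the ERK kinase MEK1, from 65.9 ± 3.49 to 132 ± 18.2 CPM (edgeR adjusted p = 0.00378). PDPK1, also a kinase, was called with a log2 fold change of 1.45. RPS6KA4 stayed a DEG without any single sample. PDPK1 was lost without DMSO replicate 2 or 3 or RG7112 replicate 2 or 3 (edgeR adjusted p up to 0.0944), and MAP2K1 fell under the fold threshold without DMSO replicate 2 or 3 or RG7112 replicate 1 or 2 (log2 fold change down to 0.94), with DESeq2 and once GC content was corrected for (0.89). MAP2K2, the paralog of MAP2K1, was lower by a log2 fold change of -0.89 (edgeR adjusted p = 0.00282), under the fold change threshold. RPS6KA1, a paralog that encodes RSK1, was at 21.1 ± 7.57 CPM with DMSO and 10.2 ± 8.75 CPM with RG7112 in H1792 and was not called.

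Among cohesin genes, listed around STAG1, 1 of 12 tested was a DEG higher and 1 lower in H1792. CDCA5, or sororin, which stabilizes cohesin on replicated DNA, rose from 4.81 ± 1.20 to 26.98 ± 7.91 CPM (log2 fold change 2.51, edgeR adjusted p = 0.00404). WAPL, which releases cohesin and is named to complete the count, fell by 1.10 on the log2 scale (edgeR adjusted p = 0.0187), a call lost without DMSO replicate 3 or any RG7112 replicate (edgeR adjusted p up to 0.0532). STAG2, the paralog of STAG1, was counted throughout, at 23.6 ± 2.01 CPM with DMSO and 47.2 ± 1.42 CPM with RG7112, a log2 fold change of 0.998 (edgeR adjusted p = 0.00429), or 0.27 with the GC correction (edgeR adjusted p = 0.205). The cohesin subunit RAD21 was at 21.1 and 36.3 CPM (log2 fold change 0.78, edgeR adjusted p = 0.0158). In A549, CDCA5 fell from 30.1 ± 10.7 to 1.07 ± 0.736 CPM (log2 fold change -4.59, edgeR adjusted p = 0.00307) and RAD21 from 30.9 ± 3.90 to 11.7 ± 2.28 CPM (-1.40, edgeR adjusted p = 0.0175). The RAD21 call was lost without any one sample except RG7112 replicate 3 (edgeR adjusted p up to 0.0778), and that of CDCA5 held in both lines without any single sample. CDCA5 was thus called in opposite directions in the 2 lines, and the difference between the lines was not tested.

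The list around ALKBH5 holds writers, erasers and readers of N6-methyladenosine, with 1 DEG higher and 1 lower of 15 tested in H1792. The reader IGF2BP3 rose from 18.1 ± 5.84 to 55.0 ± 3.54 CPM (edgeR adjusted p = 0.00630), and VIRMA, a subunit of the writer complex, fell from 28.8 ± 4.78 to 13.9 ± 1.34 CPM (edgeR adjusted p = 0.00962). The IGF2BP3 call held without any single sample, and VIRMA fell under the fold threshold without DMSO replicate 2 or 3 or RG7112 replicate 3 (log2 fold change up to -0.97). IGF2BP2 had a log2 fold change of 0.97 (edgeR adjusted p = 0.00368), under the threshold. FTO, the other eraser, was at 57.2 ± 9.04 CPM with DMSO and 65.3 ± 0.12 CPM with RG7112 and was not called (edgeR adjusted p = 0.326). In A549 IGF2BP1 fell from 100.4 ± 12.5 to 38.94 ± 2.87 CPM (edgeR adjusted p = 0.00465).

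The lists around MCCC2, DAGLA, LIN7C and ENC1 each held 1 DEG in H1792. BCAT2, the mitochondrial transaminase that starts leucine breakdown, fell from 113 ± 15.7 to 51.9 ± 8.04 CPM (edgeR adjusted p = 0.00497), while MCCC1, the partner subunit of MCCC2, was at 9.33 ± 11.8 and 6.61 ± 4.93 CPM and was not called. The phospholipase PLCB3, which can supply the diacylglycerol that DAGLA uses, fell from 148 ± 13.0 to 44.4 ± 26.3 CPM (edgeR adjusted p = 0.0330), and DAGLB, the paralog of DAGLA, was at 6.59 ± 7.55 and 4.16 ± 2.95 CPM and was not called. The scaffold DLG1 of the LIN7C list rose from 14.3 ± 1.48 to 38.4 ± 10.4 CPM (edgeR adjusted p = 0.00750), and in A549 the LIN7C partner CASK rose from 34.3 ± 6.92 to 85.1 ± 19.9 CPM (edgeR adjusted p = 0.0228). Of the ENC1 relatives, KLHL20 rose from 1.89 ± 0.344 to 5.26 ± 1.43 CPM (edgeR adjusted p = 0.0278). Without single samples the DLG1 call held. The call was lost for KLHL20 without any one sample except RG7112 replicate 1 (edgeR adjusted p up to 0.115), for PLCB3 without any DMSO replicate or RG7112 replicate 1 (up to 0.0878), for BCAT2 without RG7112 replicate 2 (log2 fold change -0.996) and for CASK without replicate 1 or 2 of either treatment (up to 0.0900). Fitting GC content within each sample (the GC correction) ended the calls of DLG1 (log2 fold change 0.76), BCAT2 (-0.75), PLCB3 (edgeR adjusted p = 0.0824) and KLHL20 (edgeR adjusted p = 0.121). KLHL5 was not called, with a log2 fold change of 0.98 (edgeR adjusted p = 0.00507), or 0.36 with the GC correction (edgeR adjusted p = 0.130).

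None of the 12 tested NT5C2 relatives was a DEG with edgeR in H1792. The salvage enzyme APRT (log2 fold change -0.82, edgeR adjusted p = 0.00321), IMPDH1 (-0.44, edgeR adjusted p = 0.00723) and the nucleotidase NT5C3B (-0.57, edgeR adjusted p = 0.00776) had small adjusted p values with changes under the fold threshold. TXNL1, the relative of PITHD1, had a log2 fold change of 0.47 (edgeR adjusted p = 0.0484). With the GC correction, the values of IMPDH1 and TXNL1 changed to 0.0035 and -0.20.

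**Figure D4:**
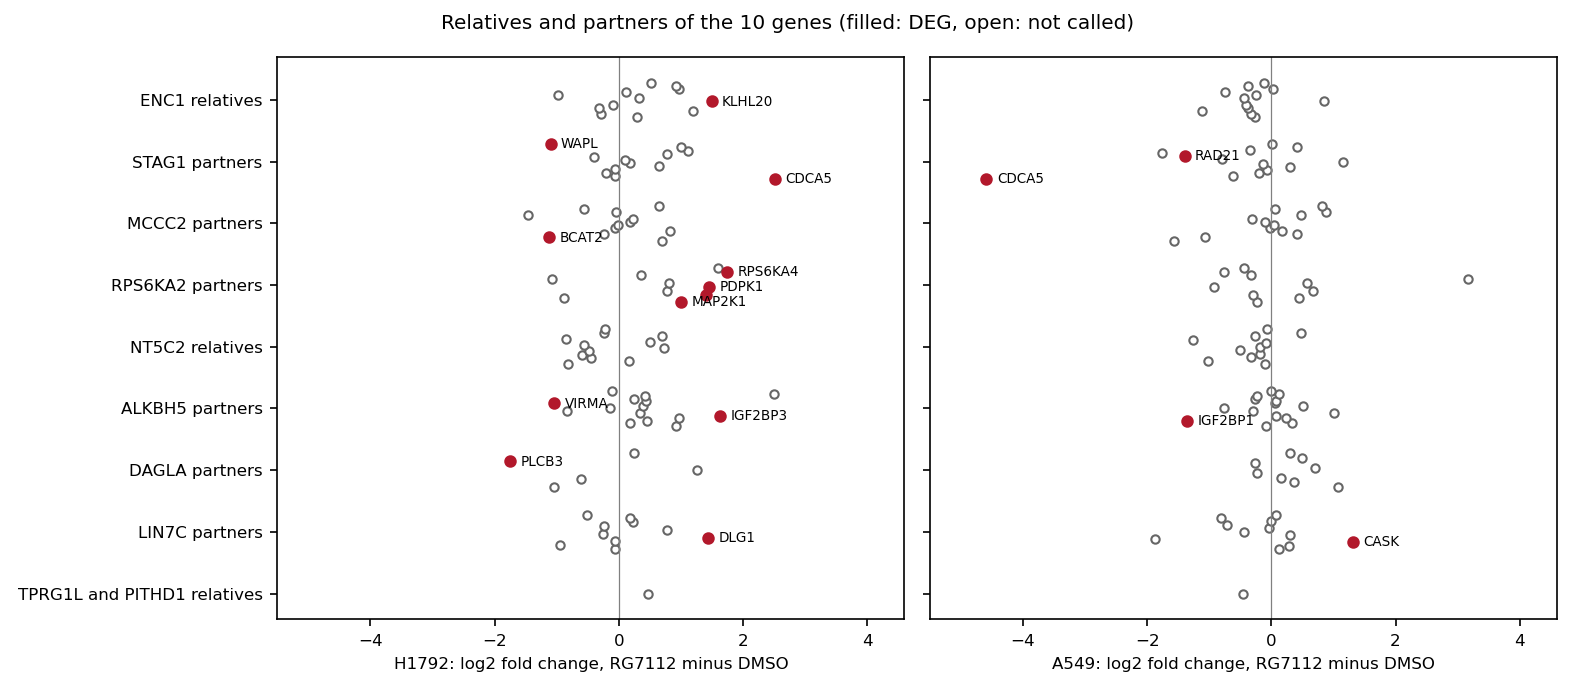
log2 fold change with RG7112 of the tested relatives and partners of the 10 genes in H1792 (left) and A549 (right), 1 row of points per list, filled for DEGs, with the names of those described in the text, and open for genes not called. The RPS6KA2 list has 4 filled points in H1792, all higher, and CDCA5 lies at 2.51 in H1792 and -4.59 in A549.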

How the data were processed

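RNA-seq of 12 samples (2 cell lines, 2 treatments, 3 replicates each) was used. The authors deposited expected counts (estimated counts per gene, as whole numbers without normalization), from kallisto 0.45.0 run on Ensembl transcripts of GRCh38, summed per gene through biomaRt. The labels and the methods give different read lengths, the methods name a directional cDNA synthesis, and whether the counting used strand is not given in the sources used here. Samples were grouped by cell line, treatment and replicate number from the labels. Totals per sample ranged from 2011916 to 6218825 counts, and 3296 of 20595 genes had no count.

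Positions, GC content and transcripts came from GENCODE release 29, which held 18011 of the identifiers. In R 4.3.3, filterByExpr (minimum count 10, total 15) chose the genes, counts were normalized by TMM within each line, and edgeR 4.0.16 fitted a robust quasi-likelihood model. The thresholds for DEGs were a Benjamini-Hochberg adjusted p of 0.05 over all genes tested and an absolute log2 fold change over 1. A group at 0 was bounded by 3 counts per library, and ratios have exact 95% intervals. On simulated data with 200 changed genes, the procedure recovered 200 in the A549 response, 197 in the replicate 3 comparison and 198 in the H1792 response, with 4, 6 and 9 false calls. The changed genes were well counted and all had the same absolute fold change, and every gene had the same dispersion. These recoveries therefore do not measure the power for the 10 genes, whose counts and spread differ.

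The 10 genes, the partner lists and the comparison of replicate 3 were chosen with earlier results of these data known. Named genes were the 10 genes, the 3 partners per list with the smallest p in H1792, the partners called in A549, up to 5 genes per direction with the same pattern, the 3 most alike in profile per direction, and the nearest tested neighbours, of which those that matter are printed. WAPL, PDPK1 and KLHL20, which belong to counts of DEGs, and the paralogs or partner subunits SMC3, RPS6KA1, FTO, MCCC1 and DAGLB were named after their values were seen. Values of some single genes that enter counts or ranks are not reported here. The alternatives were DESeq2 1.42.0, scaling by RLE or by library size only, a stricter filter (at least 10 counts in every sample) or none, the replicate number as a block, a GC correction (loess per sample, span 0.5), both together, no fold change threshold, one treatment only, and leaving out each sample.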

Additional observations from a re-analysis of the deposited data

Results flagged for a closer look

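For 3 partner genes, every RG7112 sample lay on one side of the DMSO samples in A549 and on the other side in H1792. The lists held 93 tested genes in A549 and 89 in H1792. Such separation was common, at 32.4% of all genes tested in A549. In H1792 it was 27.4% higher and 25.5% lower with RG7112. The share of all genes on opposite sides was not counted, so these 3 genes are not shown to exceed the background. CDCA5 (sororin) had a log2 fold change of -4.59 in A549 and 2.51 in H1792, and the cohesin subunit RAD21 had -1.40 in A549 and 0.78 in H1792. TXNL1, the relative of PITHD1, had -0.45 in A549 and 0.47 in H1792, where the GC correction gave -0.20. The difference between the lines was not tested for any of them. None of the 10 genes showed this, since none was without overlap between treatments in A549.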

How the results depend on the processing

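None of the 10 genes was called in the A549 response under any alternative run, including one chosen after the data were seen, without replicate 3 of both treatments (654 DEGs, against 665). Leaving out single samples gave 310 to 526 DEGs in A549, where 2 to 4 partner genes were called, and 920 to 1642 in H1792 (main count 1450), where 7 to 16 were (main count 12). The H1792 count was 964 with the GC correction, 545 under the replicate block plus GC correction, and 3384 without a fold change threshold. Of the H1792 calls, 70.3% were higher with RG7112, but 56.1% with the GC correction, 49.0% with both and 86.1% by library size only. Partner genes called in H1792 were 19 by library size only, 4 with the block and GC correction, and 30 without a fold threshold.

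The replicate 3 comparison was the least stable. Its 159 DEGs became 444 with DESeq2 (3 members called), 258 with at least 10 counts in every sample, 285 without a fold threshold, 94 in DMSO samples only and 35 in RG7112 samples only (0 members called). Leaving out single samples gave 0 to 135 DEGs and 0 to 1 members. The count was 0 with edgeR without DMSO replicate 1 or 2 or RG7112 replicate 1 or 2, where 1890 to 2102 genes had an unadjusted p under 0.05. With the replicate block it was also 0 (2054 at an unadjusted p under 0.05), and ENC1 had an adjusted p of 0.0839. The cause was not tested. The block moved no other count of calls by over 1.5 times. It ended the CDKN1A call in A549 (adjusted p = 0.0672, or 0.0555 with the GC correction) and, in H1792, those of WAPL, PDPK1, PLCB3, MAP2K1 and KLHL20, and it brought STAG2 past the fold threshold. Replicate numbers were not taken to pair the samples. The correlations of deviations between samples of the same number were 0.162, 0.0746 and 0.316 in A549 and -0.0496, -0.0261 and -0.00267 in H1792, so the samples of A549 replicate 3 deviated together more than the others.

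Some uncalled log2 values changed sign. Over the fits that each left out a single sample, the A549 response ranged from -0.67 to 0.46 for ENC1, from -0.19 to 0.91 for NT5C2 and from -1.87 to 4.49 for ALKBH5. Under the replicate block ALKBH5 was 0.75, or 0.62 if GC content was corrected too. The replicate 3 difference ranged in the same way from -2.74 to 0.14 for STAG1 and from -3.36 to 1.96 for DAGLA, and it was 0.079 for STAG1 in DMSO samples only. Among uncalled partners in H1792, IMPDH1 was 0.0035 with the GC correction and with the block added to it, and TXNL1 was -0.20 in both. RPS6KA2, TPRG1L, PITHD1 and LIN7C had too few counts for a test in A549, and depth limits values near the floor of 3 counts.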
